A study of Mus musculus with 83 samples.

Results

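The transcripts of 9 genes of the interleukin-1 (IL-1) family were followed in the aging mouse colon: the cytokine genes Il1a, Il1b, Il18 and Il33, the genes of the soluble inhibitors Il1rn and Il18bp, and the receptor genes Il1r1, Il1r2 and Il1rl1. The genes were chosen by name from a table of 37764 genes, before any filter on their level, and all 9 were present and passed the filter on low counts, as did 18325 genes in all. RNA came from the proximal colon of 83 male C57BL/6J/Ukj mice. By their labels they were kept only to age, and no treatment is named. The paper states that these samples arose within a larger study of multiple variables. There were 16 mice of each of the ages 3, 9 and 15 months, 17 of 24 months and 18 of 28 months. Polyadenylated RNA was made into stranded libraries in 3 batches, each with 4 to 7 mice of every age, and the summed gene counts of a mouse ran from 23026370 to 75838290 read pairs with a median of 35495123. The study asked how DNA methylation changes over these 5 ages, and the RNA comparison here asks the same of transcript levels. Each mouse was sampled once, so ages compare different animals, and only males were studied.

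IL-1 family cytokines act at the start of inflammation. IL-1α and IL-1β bind the same receptor, IL-1R1, which signals through MyD88 and NF-κB once it has paired with the accessory protein IL1RAP, while the antagonist IL-1RN occupies that receptor without signaling and the decoy IL-1R2 captures the ligand. IL-18 is stored in epithelial cells and is released, like IL-1β, after cleavage by caspase-1, and IL-18BP binds it in solution. IL-33 lies in the nuclei of stromal, endothelial and epithelial cells, is released on damage and acts through ST2, the product of Il1rl1, on regulatory T cells, type 2 innate lymphoid cells (ILC2) and mast cells. Only transcripts were measured here, so cleavage, release and binding of these proteins were outside the assay. In bulk tissue, fewer cells of a type and less RNA per cell cannot be told apart.

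The labelled tissue was checked against marker genes. The 6 epithelial markers summed to between 6665 and 13709 CPM (gene counts scaled to the total of the library) in every mouse, and the 4 squamous markers to at most 1.00 CPM. Of 4 pancreatic enzyme genes, the elastase gene Cela1 was expressed at every age (57.6 ± 7.90 CPM at 3 months, SD, n = 16), while Prss2, Cpa1 and Pnlip were at or below 1.00 CPM in all but 3 mice. Prss2, the gene of a trypsinogen, reached 26.0 and 11.4 CPM in 2 mice of 24 months and 12.7 CPM in 1 mouse of 28 months. All 3 mice were kept, and results that change without them are given beside the values.

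The genes of IL-33 and its receptor ST2, whose transcripts are compared below, have 2 annotated starts each. The 250 bases before each start are shown because the gene counts sum over both starts and cannot tell them apart, nor separate the soluble form of ST2 from the membrane form. The sequences are those of RefSeq on GRCm38.p6, written 5′ to 3′ on the plus strand, on which both genes lie. Capitals mark TATAAA before Il33 and AGATAA (read on the minus strand as TTATCT) before Il1rl1, which were searched on both strands. Of 32851 RefSeq windows of 300 bases around gene starts, 13.6% hold TATAAA and 11.2% hold AGATAA, so that neither is rare, and a match is not a measured binding site.
Il33, first start, chr19:29924863-29925112: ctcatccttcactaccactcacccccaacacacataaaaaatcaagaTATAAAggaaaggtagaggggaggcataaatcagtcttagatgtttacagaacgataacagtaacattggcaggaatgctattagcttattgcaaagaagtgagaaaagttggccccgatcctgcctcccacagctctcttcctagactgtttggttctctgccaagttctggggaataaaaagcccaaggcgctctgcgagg
Il33, second start, chr19:29945540-29945789: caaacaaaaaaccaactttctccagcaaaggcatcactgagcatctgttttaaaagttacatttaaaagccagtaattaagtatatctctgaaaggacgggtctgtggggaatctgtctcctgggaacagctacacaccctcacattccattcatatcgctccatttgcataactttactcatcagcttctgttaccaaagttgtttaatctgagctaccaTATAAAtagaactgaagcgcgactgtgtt
Il1rl1, first start, chr1:40429320-40429569: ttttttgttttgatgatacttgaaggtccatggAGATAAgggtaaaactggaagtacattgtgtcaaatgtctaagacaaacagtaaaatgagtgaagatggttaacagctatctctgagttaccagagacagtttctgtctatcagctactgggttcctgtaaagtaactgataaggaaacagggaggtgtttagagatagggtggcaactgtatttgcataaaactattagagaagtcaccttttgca
Il1rl1, second start, chr1:40439379-40439628: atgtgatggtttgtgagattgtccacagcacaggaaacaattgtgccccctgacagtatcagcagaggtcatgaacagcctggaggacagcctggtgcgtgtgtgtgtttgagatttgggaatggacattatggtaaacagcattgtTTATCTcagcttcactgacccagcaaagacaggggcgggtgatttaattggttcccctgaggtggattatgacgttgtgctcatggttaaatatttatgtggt
In Il33 the TATAAA begins 203 bases before the first start and 29 bases before the second. In Il1rl1 the AGATAA lies 217 bases before the first start and 103 bases before the second. All 9 genes had a window in the RefSeq table, with 14 windows in total. Of 5 motifs searched, Il1a also held TATAAA (at -32) and the AP-1 motif TGANTCA (at -12), which 7.81% of windows hold. Il1b held TATAAA at -31, and the first start of Il1rn held TGANTCA at -141. Il1r2 held the GAS motif TTCNNNGAA at -111 (8.30% of windows), Il18 and another start of Il1rn held TATAAA on the minus strand at -175 and 15, and the ETS motif AGGAAGT (9.35%) was in none of the windows of the 9 genes.

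Measured per length, the 9 genes span more than 2 orders of magnitude in this tissue. Over all 83 mice, the mean level in TPM (counts scaled by gene length and library) was 57.9 ± 17.0 (SD, n = 83) for Il18, the highest of the 9 genes in every mouse. Il1r1 followed with 23.2 ± 2.92 TPM, Il1rn with 16.3 ± 4.82 and Il18bp with 11.9 ± 3.35. Il1r1 exceeded Il1rn in 77 of the 83 mice, Il1rn exceeded Il18bp in 67 and Il18bp exceeded Il1rl1 in 80. Il1rl1 (5.70 ± 2.24 TPM), Il33 (5.26 ± 1.42) and Il1b (4.94 ± 2.65) lay close together and their order was not stable between mice, since Il1rl1 exceeded Il33 in 48 of 83 mice and Il33 exceeded Il1b in 50. Il1r2 (1.05 ± 0.359 TPM) and Il1a (0.294 ± 0.158) were the lowest 2 genes in every mouse. The first 2 and the last 2 places were the same at each of the 5 ages.

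Changes with age were tested with edgeR's quasi-likelihood test with library batch in the model, and p-values were adjusted over the 18325 genes by the Benjamini-Hochberg method, with calls at an adjusted p below 0.1. Between 28 and 3 months 6 of the 9 genes were called, at a background of 49.4% of all genes: Il1a, Il33, Il1rn and Il1r1 rose and Il18 and Il1b fell. At 24 against 3 months 6 were called (background 34.5%), at 15 against 3 months 4 (7.75%) and at 9 against 3 months 2 (8.69%). Against 9 months, 0 genes were called at 15 months (0.431%; 1 gene had an unadjusted p under 0.05 in edgeR), 2 at 24 months (15.5%) and 4 at 28 months (40.0%). At 24 against 15 months edgeR called 0 of them (13.5%; 1 at an unadjusted p under 0.05), and DESeq2 called 0 in both of these comparisons. At 28 months 3 genes differed from 15 months (42.4%) and 1 from 24 months (11.7%). The test over all 5 ages called 8 of the 9 genes (54.9% of all genes), with Il1b as the exception (edgeR adjusted p = 0.170). A straight-line slope over age was called for 6 genes (53.2%) and a departure from a straight line for 2, Il1rl1 and Il18bp (16.2%). The median log2 fold change of the 9 genes at 28 against 3 months was 0.17, beside -0.01 over all genes tested.

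The share of the 9 genes that was called was below that of all genes at 15 against 9, 24 against 15, 28 against 15 and 28 against 24 months and above it in the other comparisons, which is a description and no test. Comparisons that share an age share its mice. All 28 called differences between pairs of ages had overlapping groups of mice, and 27 of the 28 kept their sign across all 3 batches. The exception was Il18bp at 28 against 15 months, with log2 differences of 0.25, -0.00 and 0.57 in batches 1, 2 and 3. The calls were made on these same mice, so that agreement between the batches was favored in advance and is no replication.

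**Figure D1:**
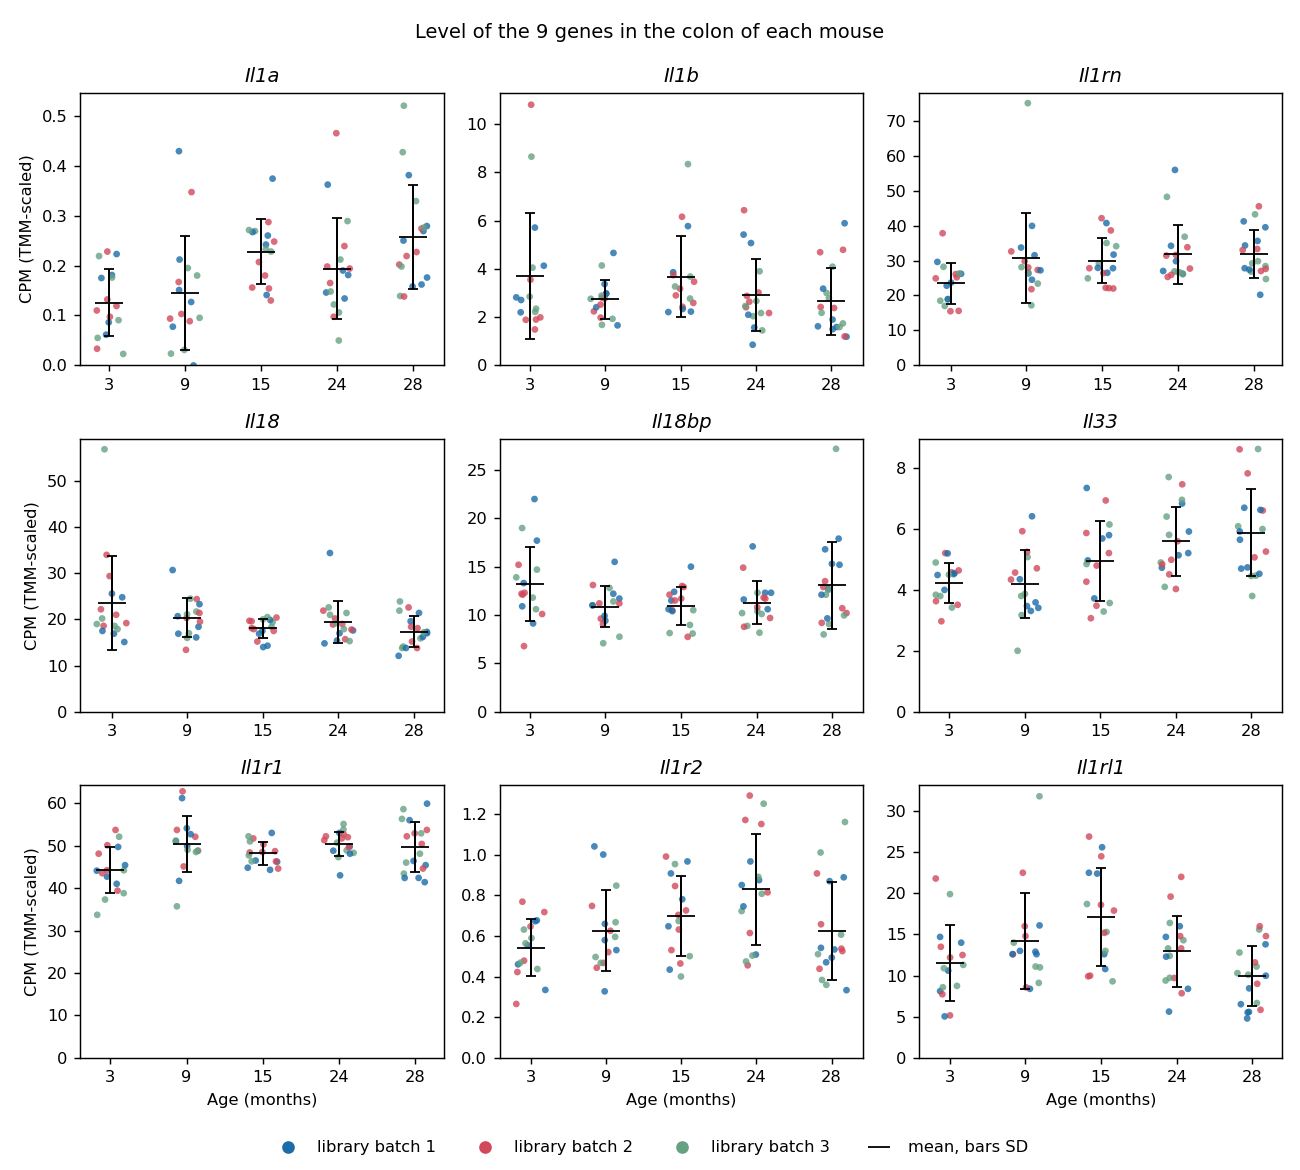
Level of each of the 9 genes in every mouse, as CPM after TMM scaling (linear axes from 0), against age in months, with the mean and SD of each age group as black bars and library batch as color. Il33 climbs from a mean of 4.23 CPM at 3 months to 5.87 at 28 months, while Il1rl1 is highest at 15 months with 17.1 CPM and lowest at 28 months with 9.92.

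**Figure D2:**
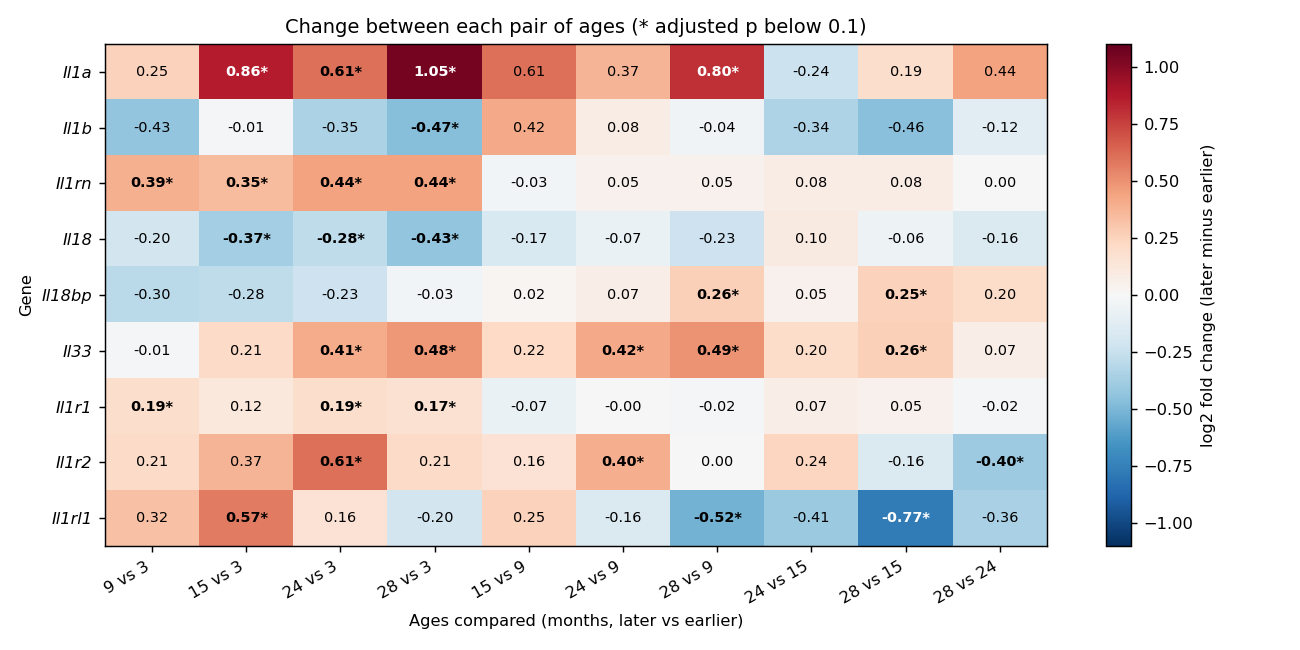
Log2 fold change (later minus earlier age) of the 9 genes (rows) in the 10 pairs of ages (columns), with an asterisk where the edgeR adjusted p was below 0.1. The largest rise is that of Il1a at 28 against 3 months (1.05) and the largest fall that of Il1rl1 at 28 against 15 months (-0.77).

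Among the ligands of IL-1R1, Il1a rose with age, while Il1b was called in a single comparison, a fall at the edge of the threshold. Il1a encodes the IL-1 that is active without cleavage, and it was scarce here, with 0 to 30 read pairs per mouse. Its CPM ran from 0.0230 over a median of 0.115 to 0.228 at 3 months, from 0 over 0.115 to 0.429 at 9 months and from 0.130 over 0.238 to 0.374 at 15 months. At 24 months it ran from 0.0499 over 0.181 to 0.465 and at 28 months from 0.138 over 0.238 to 0.520. All 18 mice of 28 months and all 16 of 15 months lay above the 3-month median, although the groups overlapped, and 9 of the 28-month mice exceeded the highest 3-month mouse. The 1 mouse with no Il1a read (9 months) had 27588216 read pairs, a depth that allows a level of up to 0.109 CPM (3 counts). Il1a differed by 1.05 ± 0.25 (log2 fold change, SE) at 28 against 3 months, a 2.07-fold rise (edgeR adjusted p = 0.000428), by 0.86 ± 0.26 at 15 against 3 months (edgeR adjusted p = 0.0342) and by 0.61 ± 0.26 at 24 against 3 months (edgeR adjusted p = 0.0729). The last of these was lost with macrophage and epithelial scores (0.34, edgeR adjusted p = 0.449) and with adipocyte and fibroblast scores (0.52, edgeR adjusted p = 0.160) as covariates. Within the batches the difference at 28 against 3 months was 0.66, 0.81 and 1.56. Between 24 and 15 months the difference was -0.24 ± 0.24.

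The filter on low counts matters for Il1a. It passed because 15 mice reached the limit of 0.282 CPM, of which 0 were 3 months old and 7 were 28 months old, so that its passing and its rise are not independent. Without any filter the difference at 28 against 3 months was 1.05 (edgeR adjusted p = 0.000863) and that at 15 against 3 months 0.85 (edgeR adjusted p = 0.0615), but that at 24 against 3 months was no longer called. Il1a dropped below the filter when the 3 mice with pancreatic RNA or the 28-month mouse 1, which had 30 Il1a reads, were left out.

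Il1b encodes the inducible form of IL-1, made mainly by activated myeloid cells, and it varied more between mice than with age. At 3 months its CPM ran from 1.49 over a median of 2.77 to 10.8, at 9 months from 1.66 over 2.77 to 4.66 and at 15 months from 2.21 over 3.22 to 8.34. It ran from 0.857 over 2.46 to 6.43 at 24 months and from 1.19 over 2.28 to 5.89 at 28 months. The ranges of all 5 ages overlapped, with 9 of the 18 mice of 28 months below the lowest 15-month mouse and 2 below the lowest 3-month mouse. The coefficient of variation at 3 months was 70.5%, against 25.3% for Il1rn. At 28 against 3 months Il1b fell by 0.47 on the log2 scale (SE 0.23), barely past the threshold (edgeR adjusted p = 0.0907). The batches gave -0.53, -0.22 and -0.64. Below the 3-month median lay 11 of the 18 older mice. This call did not hold without the 3-month mouse 14 (-0.32, edgeR adjusted p = 0.266) or without the 3 mice with pancreatic RNA (-0.46, edgeR adjusted p = 0.109). With the macrophage and epithelial marker scores as covariates the difference was -0.88 (edgeR adjusted p = 0.000334).

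The macrophage markers, the textbook sources of Il1b, went the other way. Of 6 macrophage markers 5 rose at 28 against 3 months, where 49.4% of all genes were called. Their summed level ran from 132 to 205 CPM at 3 months and from 126 to 306 CPM at 28 months, with no marker at 0. Apart from the fit with scores as covariates, their part in the result for Il1b was not tested. Of the 4 neutrophil markers tested, the granule protein genes S100a8 (log2 fold change 0.91) and S100a9 (1.47) rose and Ly6g fell (-1.11). S100a8 averaged 0.134 CPM at 3 months and 0.252 at 28 months, and S100a9 0.156 and 0.437 CPM. Both 3-month means lay below the filter limit of 0.282 CPM, so that passing the filter and rising may not be independent. Ly6g varied widely at 3 months (3.40 ± 4.32 CPM, SD).

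The antagonist gene Il1rn was higher at every later age than at 3 months. At 3 months 15.5 CPM was the lowest value, 24.3 the median and 37.8 the highest, and at 9 months Il1rn ran from 17.2 over 27.6 to 75. At 15 months it ran from 22.0 over 27.8 to 42.1, at 24 months from 25.3 over 27.7 to 55.9 and at 28 months from 20.2 over 29.5 to 45.5. All 17 mice of 24 months and 17 of 18 of 28 months exceeded the 3-month median, but each group overlapped the 3-month mice. The log2 fold change against 3 months was 0.39 ± 0.13 at 9 months (edgeR adjusted p = 0.0619), 0.35 ± 0.13 at 15 (edgeR adjusted p = 0.0946) and 0.44 ± 0.13 at both 24 (edgeR adjusted p = 0.00735) and 28 months (edgeR adjusted p = 0.00327). The batches gave 0.41, 0.46 and 0.48 for 28 against 3 months. The 9-month value leaned on mouse 13 with 75 CPM, which lay 4.04 SD above its fitted value, and without it the difference at 9 against 3 months was 0.24 and no longer called (edgeR adjusted p = 0.220), a move by over 1.5 times, while that at 28 against 3 months was 0.44. That at 15 against 3 months lies at the threshold: without the 3 mice with pancreatic RNA, none of which is of either age, it was again 0.35 but was not called (edgeR adjusted p = 0.104). The counts sum over the secreted and intracellular forms of the antagonist.

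Set against each other per length in the same mouse, the median ratio of Il1rn to Il1b in TPM was 2.62 at 3 months (range 1.05 to 4.73), 3.58 at 9, 3.02 at 15, 4.04 at 24 and 4.11 at 28 months (range 2.37 to 13). Il1rn transcripts thus exceeded those of Il1b in every mouse, since the lowest ratio at any age was 1.03. The ratios were not tested, and the ranges of all ages overlapped.

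The signaling receptor gene Il1r1 was the steadiest of the 9 genes. Its CPM ran from 33.7 over a median of 44.1 to 53.7 at 3 months, from 35.7 over 50.5 to 62.8 at 9 months and from 44.3 over 48.1 to 53.0 at 15 months. It ran from 43.0 over 50.7 to 55.1 at 24 months and from 41.4 over 49.2 to 59.9 at 28 months. The older groups had higher medians and overlapped the 3-month mice, and the spread was narrowest at 15 and 24 months, with a coefficient of variation of 5.80% and 5.73%. Il1r1 rose by 0.19 ± 0.05 at 9 against 3 months (log2, SE; edgeR adjusted p = 0.0191), by 0.19 ± 0.05 at 24 (edgeR adjusted p = 0.00389) and by 0.17 ± 0.05 at 28 months (edgeR adjusted p = 0.00428), which is 1.13-fold. In the batches the last difference was 0.10, 0.13 and 0.30. At 15 against 3 months it was 0.12 ± 0.05 and was not called (edgeR adjusted p = 0.197).

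Il1r2, the decoy receptor found on neutrophils, macrophages and regulatory T cells, was highest at 24 months. The CPM of Il1r2 ran from 0.265 over a median of 0.558 to 0.768 at 3 months, from 0.327 over 0.587 to 1.04 at 9 months and from 0.400 over 0.688 to 0.990 at 15 months. It ran from 0.455 over 0.814 to 1.29 at 24 months and from 0.333 over 0.535 to 1.16 at 28 months. At 24 months 10 of the 17 mice exceeded the highest 3-month mouse, while 13 of the 18 mice of 28 months lay below the 24-month median. The rise from 3 to 24 months was 0.61 ± 0.16 (edgeR adjusted p = 0.00270, 1.53-fold; 0.54, 0.75 and 0.52 in the batches). The fall from 24 to 28 months was -0.40 ± 0.15 (edgeR adjusted p = 0.0946; -0.42, -0.60 and -0.18 in the batches), and it was lost without the 3 mice with pancreatic RNA (-0.42, edgeR adjusted p = 0.103) and with several other settings. At 28 against 3 months the difference was 0.21, with a 95% interval of -0.11 to 0.53. Markers of the cells named above went as follows: at 24 against 3 months, where 34.5% of all genes were called, 5 of 6 macrophage markers rose and 0 fell, and of 4 regulatory T cell and 4 neutrophil markers 3 each rose and 1 each fell. The summed macrophage level ran from 132 to 205 CPM at 3 months (median 171) and from 159 to 272 CPM at 24 months (median 205). The regulatory T cell sum ran from 14.7 to 31.3 (median 24.0) and from 16.5 to 30.1 CPM (median 22.6). Ikzf2 makes up most of that sum, with a mean of 20.5 CPM at 3 months, against 0.954 for Foxp3, 1.23 for Il2ra and 1.63 for Ctla4. The sum thus follows mainly Ikzf2 and says little of the other markers. The neutrophil sum ran from 3.41 to 23.5 (median 4.90) and from 3.85 to 14.5 CPM (median 5.83), with no marker at 0 in these lists. With macrophage and epithelial scores as covariates Il1r2 differed by 0.47 at 24 against 3 months (edgeR adjusted p = 0.0486) and by 0.26 at 24 against 9 months, where the call was lost (edgeR adjusted p = 0.362, against 0.40 and 0.0889 without the scores). The part of regulatory T cells and neutrophils was not tested. With 8 to 67 read pairs per mouse, Il1r2 was counted with low precision.

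Il18, which colonic epithelial cells express without stimulation, fell with age. Its CPM ran from 15.1 over a median of 19.7 to 56.9 at 3 months, from 13.4 over 20.5 to 30.7 at 9 months and from 14 over 18.2 to 20.5 at 15 months. It ran from 14.8 over 18.9 to 34.4 at 24 months and from 12.1 over 17.1 to 23.9 at 28 months. The groups overlapped, and 14 of the 18 mice of 28 months lay below the 3-month median. Il18 differed from 3 months by -0.37 ± 0.12 at 15 months (edgeR adjusted p = 0.0364), by -0.28 ± 0.11 at 24 months (edgeR adjusted p = 0.0594) and by -0.43 ± 0.11 at 28 months (edgeR adjusted p = 0.00115, 0.741-fold). The batches gave -0.25, -0.45 and -0.57 at 28 against 3 months. The 3-month mouse 14, with 56.9 CPM, lay 4.30 SD above its fitted value. Without it the fall was -0.28 at 28 months (edgeR adjusted p = 0.0198), a smaller change by over 1.5 times, and the calls at 15 months (-0.24, edgeR adjusted p = 0.180) and at 24 months (-0.12, edgeR adjusted p = 0.378) were lost, both also moved by over 1.5 times.

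Il18 and the epithelium can be set side by side. Of the 6 epithelial markers 3 fell at 28 against 3 months, where 49.4% of all genes were called. The log2 fold changes were -0.17 for Cdh1, -0.15 for Krt19 and -0.09 for Epcam. The summed level had a median of 11013 CPM at 3 months and 10394 CPM at 28 months. With the epithelial and macrophage scores as covariates, the difference of Il18 at 28 against 3 months was -0.45 (edgeR adjusted p = 0.00251).

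Il18bp, the interferon-inducible inhibitor of IL-18, had lower medians from 9 to 24 months than at 3 and 28 months. In CPM, Il18bp ran from 6.78 over a median of 12.3 to 22.0 at 3 months, from 7.08 over 11.1 to 15.5 at 9 months and from 7.74 over 11 to 15.0 at 15 months. It ran from 8.17 over 10.8 to 17.1 at 24 months and from 7.99 over 12.4 to 27.2 at 28 months. The 2 ends of life had the higher upper values, and all groups overlapped. Il18bp departed from a straight line in age (edgeR adjusted p = 0.0769) and rose by 0.26 ± 0.11 from 9 to 28 months (edgeR adjusted p = 0.0651; 0.29, 0.06 and 0.40 in the batches) and by 0.25 ± 0.12 from 15 to 28 months (edgeR adjusted p = 0.0862). These 3 calls rested on few mice. The 28-month mouse 1, with 27.2 CPM, lay 3.87 SD above its fitted value, and without it the rises were 0.16 (edgeR adjusted p = 0.237) and 0.15 (edgeR adjusted p = 0.262), the departure was not called, and the falls from 3 to 9, 15 and 24 months were. At 28 against 3 months the difference was -0.03, with a 95% interval of -0.26 to 0.19. The ratio of Il18bp to Il18 in TPM had a median of 0.194 at 3 months and 0.241 at 28 months, with ranges of 0.0679 to 0.442 and 0.155 to 0.673, and was not tested.

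Il33 rose over the life span. Values in CPM ran from 2.97 over a median of 4.49 to 5.21 at 3 months, from 2.00 over 4.11 to 6.42 at 9 months and from 3.07 over 4.91 to 7.35 at 15 months. It ran from 4.03 over 5.21 to 7.71 at 24 months and from 3.80 over 5.79 to 8.63 at 28 months. At 28 months 11 of 18 mice exceeded the highest 3-month mouse, and the 2 groups still overlapped. The log2 fold change was 0.48 ± 0.11 at 28 against 3 months (edgeR adjusted p = 0.000458, 1.39-fold; 0.29, 0.70 and 0.45 in the batches), 0.41 ± 0.12 at 24 against 3 months (edgeR adjusted p = 0.00569) and 0.26 ± 0.11 at 28 against 15 months (edgeR adjusted p = 0.0619). Its slope was 0.0212 ± 0.00386 per month on the log2 scale (edgeR adjusted p = 5.09e-06), and a departure from a straight line was not called (edgeR adjusted p = 0.803). Markers of cells that can hold IL-33, and of macrophages, moved in both directions at 28 against 3 months, where 49.4% of all genes were called. Among them 4 of 5 endothelial and 5 of 6 macrophage markers rose and 3 of 6 epithelial markers fell. Of 5 fibroblast markers Dcn rose (0.51) and Col1a1 fell (-0.28), and 1 of 4 adipocyte markers rose. The endothelial markers summed to between 97.8 and 119 CPM at 3 months and between 107 and 157 CPM at 28 months, the fibroblast markers to 398 to 809 and 430 to 814 CPM and the adipocyte markers to 10.9 to 60.6 and 14.1 to 90.0 CPM, with none of them at 0. With adipocyte and fibroblast scores as covariates the difference of Il33 at 28 against 3 months was 0.43 (edgeR adjusted p = 0.000136), and with macrophage and epithelial scores 0.33 (edgeR adjusted p = 0.0158). With the latter, the difference at 24 against 3 months (0.25, edgeR adjusted p = 0.141) was no longer called.

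Il1rl1, the gene of the IL-33 receptor ST2, had its highest mean at 15 months and was lower at 28 months. Its CPM ran from 5.04 over a median of 11.1 to 21.8 at 3 months, from 8.39 over 12.7 to 31.8 at 9 months and from 9.30 over 16.6 to 26.9 at 15 months. It ran from 5.62 over 13.3 to 22.0 at 24 months and from 4.79 over 10 to 16.0 at 28 months. All 18 mice of 28 months lay below the 15-month median and 8 of them below the lowest 15-month mouse, with overlap between the groups. Il1rl1 differed by 0.57 ± 0.18 at 15 against 3 months (edgeR adjusted p = 0.0461, 1.48-fold; 0.84, 0.53 and 0.25 in the batches) and by -0.77 ± 0.18 at 28 against 15 months (edgeR adjusted p = 0.000374, 0.586-fold; -1.26, -0.61 and -0.34 in the batches). At 28 against 9 months it differed by -0.52 ± 0.18 (edgeR adjusted p = 0.0177). The neighboring ages did not differ from 15 months by the test. At 15 against 9 months the difference was 0.25 ± 0.18 (edgeR adjusted p = 0.717), with 0.57, 0.24 and -0.14 in the batches. At 24 against 15 months it was -0.41 ± 0.18 (edgeR adjusted p = 0.140). The 2 ends of life did not differ by the test (-0.20, 95% interval -0.56 to 0.15), but with macrophage and epithelial scores as covariates the difference was -0.35 and was called (edgeR adjusted p = 0.0611), and without the 3-month mouse 14 it was -0.12 (edgeR adjusted p = 0.627). Il1rl1 had the clearest departure from a straight line of the 9 genes (edgeR adjusted p = 0.0103). The fall from 15 to 28 months was called under each of the 15 alternatives tried, with values between -0.99 and -0.75. The largest of these came with macrophage and epithelial scores as covariates, and adipocyte and fibroblast scores gave -0.83 (edgeR adjusted p = 4.51e-06).

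At 28 against 15 months the log2 fold changes of ligand and receptor had opposite signs, 0.26 for Il33 and -0.77 for Il1rl1. That of Il33 was the less firm, with 0.02, 0.48 and 0.33 in the batches, 0.17 (edgeR adjusted p = 0.218) with macrophage and epithelial scores as covariates, and no call at a threshold of 0.05. The median ratio of Il1rl1 to Il33 in TPM was 1.13 at 3 months, 1.31 at 9, 1.27 at 15, 0.901 at 24 and 0.717 at 28 months, with ranges of 0.929 to 2.63 at 15 months and 0.349 to 1.46 at 28 months that overlap. The difference between both genes' changes was not tested. Markers of cells that carry ST2 went both ways at 28 against 15 months, a comparison in which 42.4% of all genes were called: of 3 mast cell markers tested 2 rose and 1 fell, and of 4 regulatory T cell markers 1 rose. The mast cell markers Mcpt4 and Cpa3 averaged only 0.168 and 0.229 CPM at 15 months, below the filter limit of 0.282 CPM. Of the 4 ILC2 markers tested, a list that holds Il1rl1 itself, 2 rose and 2 fell. All 4 goblet cell markers fell in the same comparison, and the summed goblet level had a median of 36866 CPM at 15 months and 23611 CPM at 28 months with no marker at 0. Their part in the result was not tested.

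Il1rl1 sits in a cluster of receptor genes on chromosome 1, all on the plus strand, that runs over 478 kb from Il1r2 to Il18rap (GRCm38). In order they are Il1r2, Il1r1, Il1rl2 (the receptor of the IL-36 cytokines), Il1rl1, Il18r1 and Il18rap, the last 2 being the chains of the IL-18 receptor. Il18r1 begins only 136 bases after the annotated end of Il1rl1. At 28 against 3 months Il18r1 rose by 0.94 ± 0.10 (edgeR adjusted p = 1.10e-12), from 3.47 ± 0.801 CPM (SD, n = 16) to 6.72 ± 1.08 (SD, n = 18), and Il18rap by 1.26 ± 0.12 (edgeR adjusted p = 1.80e-14), from 2.36 ± 0.536 to 5.73 ± 1.51 CPM. Il1rl2 differed by 0.04 ± 0.09 and did not pass the test. Between 15 and 28 months, when Il1rl1 fell, Il18r1 rose by 0.78 (edgeR adjusted p = 1.76e-09) and Il18rap by 0.68 (edgeR adjusted p = 4.39e-06). The IL-18 receptor chains thus rose while Il18 itself was lower at 28 than at 3 months.

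**Figure D3:**
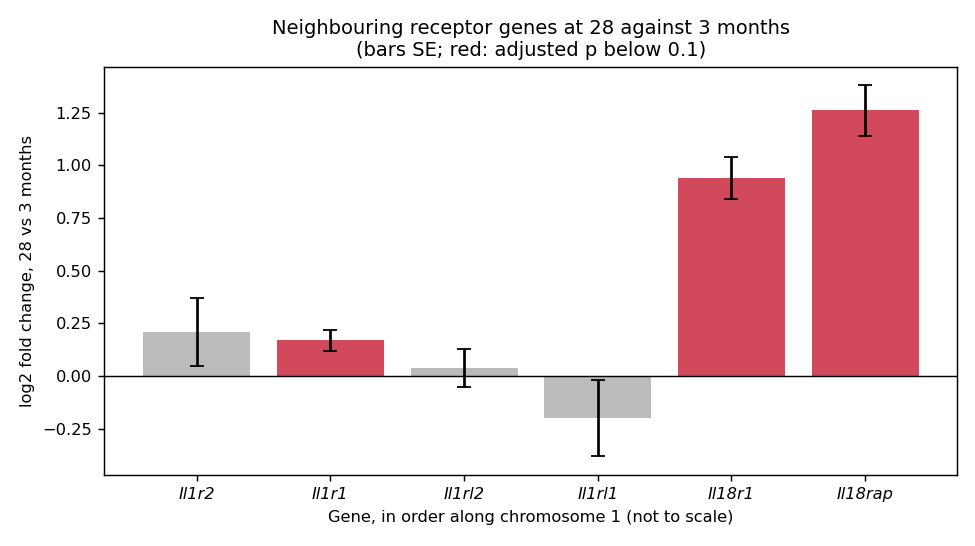
Log2 fold change at 28 against 3 months (bars, with SE) of the 6 neighboring receptor genes in their order along chromosome 1, with red for an edgeR adjusted p below 0.1 and gray otherwise. Il18r1 (0.94) and Il18rap (1.26) rose the most, and their neighbor Il1rl1 (-0.20) did not pass the test.

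Of the other receptors of the family, 5 of 7 passed the filter. At 24 against 15 months (13.5% of all genes called) 2 rose and 0 fell. At 28 against 3 months (49.4% of all genes called) 3 rose and 1 fell, with a median log2 fold change of 0.18. Besides the IL-18 receptor chains these were Il1rap, the shared accessory chain, with 0.18 ± 0.06 (edgeR adjusted p = 0.00833), and Sigirr, an inhibitory receptor of the gut epithelium, with -0.09 ± 0.03 (edgeR adjusted p = 0.0415). Of 5 other ligand and antagonist genes only the IL-36β gene Il36b passed the filter, and it differed by 0.34 ± 0.24 at 28 against 3 months, which was not called, and by 0.71 ± 0.25 at 28 against 15 months (edgeR adjusted p = 0.0214). The remaining 4 had at most 5 reads in any mouse. The ligand genes Il1a and Il1b lie 54.6 kb apart on chromosome 2, and had log2 fold changes of opposite sign at 28 against 3 months.

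The pathway below the receptors moved by small amounts. For this list and those that follow, the background was 49.4% of all genes called at 28 against 3 months and 13.5% at 24 against 15 months. All 20 genes of the list of signaling below the receptors passed the filter, and at 28 against 3 months 6 rose and 2 fell, with a median log2 fold change of 0.04. The kinase gene Irak2 (0.18 ± 0.04), the NF-κB inhibitor gene Nfkbia (0.16 ± 0.06) and the ubiquitin ligase gene Traf6 (0.15 ± 0.04) rose, and the kinase gene Irak4 (-0.28 ± 0.05) and the NF-κB subunit gene Nfkb1 (-0.10 ± 0.04) fell. At 24 against 15 months 1 of these genes rose and 1 fell. Genes for the inflammasome and for the processing of IL-1 and IL-18 went both ways: of 16 tested 6 rose and 4 fell at 28 against 3 months, with a median of 0.04. The rises were led by the neutrophil protease gene Prtn3 (0.71), the sensor gene Nlrp3 (0.39) and Casp4 (0.35), which encodes caspase-11. Prtn3 was near the floor, with a mean of 0.266 CPM at 3 months and 0.432 at 28 months. Its 3-month mean lay below the filter limit of 0.282 CPM, so that its passing and its rise may not be independent. The falls were led by Nlrp6, the sensor of the colonic epithelium, from 312 ± 39.8 to 241 ± 32.2 CPM (-0.38 ± 0.06, edgeR adjusted p = 3.24e-07), followed by Nlrp1b (-0.32) and Casp8 (-0.28). At 24 against 15 months 0 of the 16 were called.

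Among the genes that IL-1 induces, 10 of 17 passed the filter. At 28 against 3 months 3 rose and 2 fell (median 0.06), and 2 rose and 1 fell at 24 against 15 months. The balance was the other way at 28 against 15 months (42.4% of all genes called), where 2 rose and 5 fell (median -0.27). The siderophore-binding gene Lcn2 (0.80), the nitric oxide synthase gene Nos2 (0.71) and the adhesion molecule gene Icam1 (0.36) rose, while the serum amyloid genes Saa1 (-1.29 ± 0.18, from 264 ± 131 to 108 ± 43.2 CPM) and Saa3 (-0.60) fell. Il6, Cxcl1, Cxcl2, Il17a, Il22, Csf2 and Csf3 were too low to test, with at most 24 reads in any mouse. Saa1 is near-identical to Saa2, so that its share of their reads is uncertain.

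Of the genes of type 2 immunity that act downstream of IL-33, 6 of 10 were tested, of which 2 rose and 1 fell at 28 against 3 months (median 0.24) and 1 rose and 1 fell at 24 against 15 months. Gata3, the factor of type 2 lymphocytes, rose by 1.08 ± 0.13 at 28 against 3 months (edgeR adjusted p = 1.16e-10) and the eosinophil attractant Ccl11 by 0.46 ± 0.11. Retnlb, the gene of the goblet cell product RELMβ that type 2 cytokines induce, averaged 402 ± 173 CPM (SD) in the 16 mice of 3 months, 967 ± 703 in the 16 of 15 months and 234 ± 146 in the 18 of 28 months, and of these 3 ages was highest at 15 months, as Il1rl1 was. It differed by 1.25 ± 0.31 at 15 against 3 months (edgeR adjusted p = 0.00618) and by -2.04 ± 0.31 at 28 against 15 months (edgeR adjusted p = 2.56e-07). The goblet markers Clca1 (5422, 9009 and 3106 CPM at 3, 15 and 28 months) and Fcgbp (5448, 7046 and 4287 CPM) had the same order, while Tff3 (480, 477 and 399 CPM) did not. What this likeness reflects was not tested. Areg, an epidermal growth factor receptor ligand made by ST2-bearing cells, was the other gene that fell at 28 against 15 months, and is named after its value was seen (-0.52 ± 0.19, edgeR adjusted p = 0.0250). The cytokine genes Il4, Il5, Il9 and Il13 had at most 23 reads in any mouse and were not tested.

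Of 8 genes tested around IL-18 and interferon gamma, 5 rose and 0 fell at 28 against 3 months, with a median log2 fold change of 0.58, and 7 rose and 1 fell at 28 against 15 months (42.4% of all genes called), while 1 was called at 15 against 3 months and 0 at 24 against 15 months. The 3 largest rises at 28 against 3 months were those of the IL-12 subunit gene Il12b (0.73 ± 0.22), the chemokine gene Cxcl9 (0.69 ± 0.23) and the guanylate-binding protein gene Gbp2 (0.64 ± 0.17), the last 2 of which interferon gamma induces. Il12b was near the floor, with a mean of 0.210 CPM at 3 months and 0.354 at 28 months. Its 3-month mean lay below the filter limit of 0.282 CPM, so that its passing and its rise may not be independent. Il12a, named after its value was seen, was the gene that fell at 28 against 15 months (-0.32 ± 0.15). Ifng itself, with at most 59 reads in any mouse, was not tested. Of the 5 T cell markers 1 rose at 28 against 3 months and 3 rose at 28 against 15 months, and their part in these counts was not tested. The lists were compared with all genes by their counts and medians alone, and at 28 against 3 months 49.4% of all genes were called.

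Whether the 9 genes vary together between mice was asked after the means of age and batch had been removed from the log2 CPM. Of 36 pairs of genes 5 had an adjusted p below 0.1 by Pearson's r (permutation test, 100000 resamples, Benjamini-Hochberg adjustment over the 36 pairs). The strongest was the ligand and receptor pair Il33 and Il1rl1, with r = 0.47 (permutation p = 4.00e-05, adjusted p = 0.000720) and Spearman's rho = 0.48 (permutation p = 2.00e-05, adjusted p = 0.000720). Without the 2 mice farthest from the median of Il33, r was 0.45, and in the 3 batches it was 0.48, 0.47 and 0.47. By age it was 0.00 at 3 months, 0.54 at 9, 0.64 at 15, 0.45 at 24 and 0.60 at 28 months. Over all ages together, mice with more Il33 than others of their age thus had more Il1rl1. The values by age rest on 16 to 18 mice each and were not tested, nor was the difference between 3 months and the later ages. The mean of Il33 was nevertheless higher and that of Il1rl1 lower at 28 than at 15 months.

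Il1rl1 also varied with Il1b (r = 0.44, permutation p = 3.00e-05, adjusted p = 0.000720; rho = 0.37, permutation p = 0.000650, adjusted p = 0.0117). This r was 0.37 without the 2 most extreme mice and 0.56, 0.42 and 0.29 in the batches, and ran from -0.16 at 9 months to 0.80 at 28 months. Il1rl1 and Il1rn had r = 0.39 (permutation p = 0.000250, adjusted p = 0.00300; rho = 0.35, permutation p = 0.00138, adjusted p = 0.0166), which was 0.29 without 2 mice, 0.26, 0.38 and 0.54 in the batches and 0.81 at 9 months against 0.05 at 15 months. The other 2 pairs were weak. Il1a and Il1r2 had r = 0.29 (permutation p = 0.00762, adjusted p = 0.0686; rho = 0.24, permutation p = 0.0291, adjusted p = 0.150; 0.27 without 2 mice; 0.18, 0.10 and 0.55 in the batches). Il1a and Il1r1 had r = 0.28 (permutation p = 0.0109, adjusted p = 0.0783; rho = 0.20, permutation p = 0.0731, adjusted p = 0.263), which fell to 0.17 without 2 mice (0.44, 0.27 and 0.14 in the batches). For Il18 and its inhibitor Il18bp, r was -0.15 (permutation p = 0.185, adjusted p = 0.370) and rho -0.29 (permutation p = 0.00762, adjusted p = 0.0604), and r was -0.41 without the 2 mice.

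**Figure D4:**
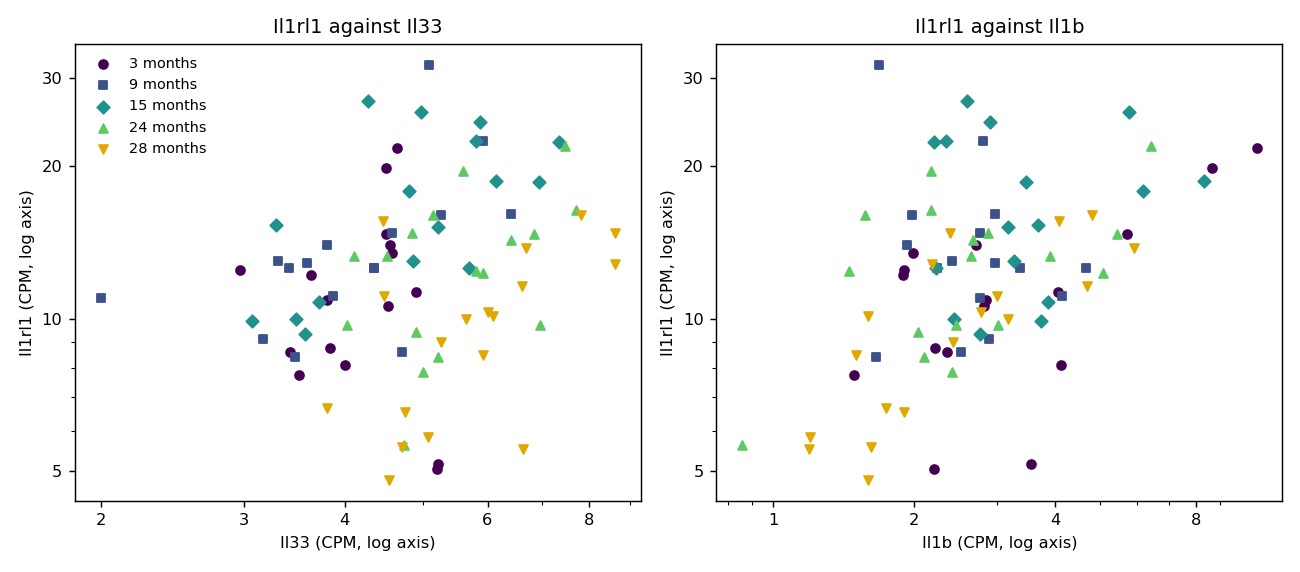
Il1rl1 against Il33 (left) and against Il1b (right) in the 83 mice, in CPM on log axes, with color and symbol for age. At 28 months the points lie low in Il1rl1 and high in Il33. Within an age the r of Il1rl1 and Il33 was 0.00 at 3 months and between 0.45 and 0.64 at the later ages, values that were not tested by age.

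The same residuals were set against the mean log2 CPM of 20 marker lists, from which the 9 genes were left out. Of 180 correlations, 44 had an adjusted p below 0.1 (permutation test of Pearson's r, adjusted over the 180). Il1b varied with the macrophage markers (r = 0.57, permutation p = 1e-05, adjusted p = 0.000300; rho = 0.53, permutation p = 1e-05, adjusted p = 0.000225; 0.57 without 2 mice; 0.48, 0.72 and 0.52 in the batches). Il1rl1 varied with the fibroblast markers (r = 0.60, permutation p = 1e-05, adjusted p = 0.000300; rho = 0.64, permutation p = 1e-05, adjusted p = 0.000225; 0.60 without 2 mice; 0.74, 0.74 and 0.28 in the batches) and nearly as much with the macrophage markers (r = 0.54). The r of Il1rl1 with the epithelial and the goblet list was 0.37 each (permutation p = 0.000270 and 0.000600, adjusted p = 0.00374 and 0.00587). The smallest p the resamples can give is 1e-05. Among markers of cells that carry ST2, its r was 0.42 with the regulatory T cell list and lower with the mast cell and ILC2 lists, at r = 0.29 for each (permutation p = 0.00666 and 0.00737, adjusted p = 0.0346 and 0.0359; rho = 0.32 and 0.29).

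Il33 varied most with the adipocyte markers (r = 0.54, permutation p = 1e-05, adjusted p = 0.000300; rho = 0.55, permutation p = 1e-05, adjusted p = 0.000225; 0.49 without 2 mice; 0.48, 0.51 and 0.66 in the batches), followed by fibroblast (0.44), macrophage (0.43) and endothelial (0.42) markers. Il18bp varied with the T cell markers (r = 0.61, permutation p = 1e-05, adjusted p = 0.000300; rho = 0.59, permutation p = 1e-05, adjusted p = 0.000225; 0.52 without 2 mice; 0.48, 0.62 and 0.70 in the batches). Il1a varied with the B cell markers (r = 0.47, permutation p = 2.00e-05, adjusted p = 0.000514; rho = 0.48, permutation p = 2.00e-05, adjusted p = 0.000360; 0.44 without 2 mice; 0.53, 0.58 and 0.31 in the batches), although Il1a rose with age and 3 of 4 B cell markers fell at 28 against 3 months. For Il18 and the epithelial markers r was -0.09, and its r of 0.41 with the neutrophil markers (rho = 0.23, permutation p = 0.000470 and 0.0378, adjusted p = 0.00498 and 0.136) rested on 2 mice, with 0.13 left without them. Il1r1 had negative correlations, r = -0.31 with epithelial markers (rho = -0.32, permutation p = 0.00470 and 0.00312, adjusted p = 0.0297 and 0.0196) and r = -0.30 with neutrophil markers (rho = -0.29, permutation p = 0.00672 and 0.00735, adjusted p = 0.0346 and 0.0389).

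**Figure D5:**
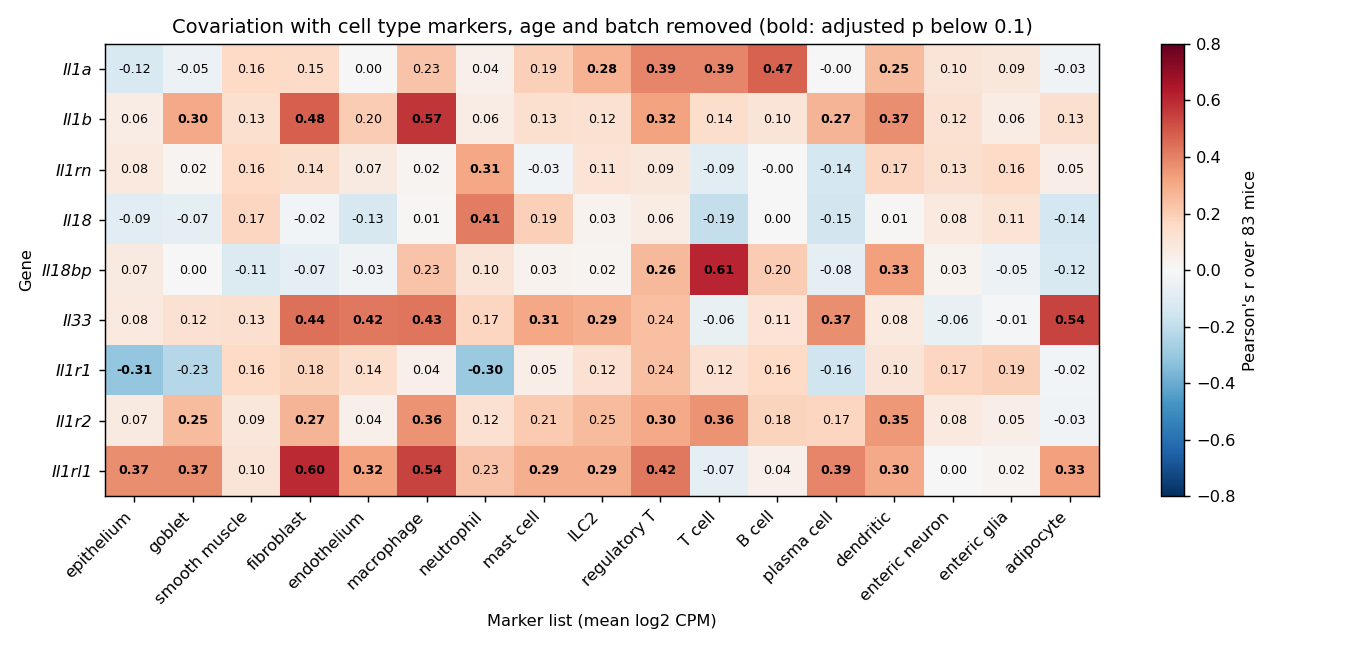
Pearson's r over 83 mice between each of the 9 genes (rows) and the mean log2 CPM of 17 marker lists (columns), after removal of age and batch, with bold for an adjusted p below 0.1. The highest values are those of Il18bp with T cells (0.61), Il1rl1 with fibroblasts (0.60) and Il1b with macrophages (0.57).

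The genes most like each of the 9 were named as the 3 with the highest Pearson's r over the 83 mice among 14961 genes (14962 for Il1a and Il1r2) with a mean of at least 1 CPM, which describes likeness and is no test. Il1rl1 was most like Tpm4 (r = 0.79), Psat1 (0.75) and Etv4 (0.72). Il18bp was most like B2m (0.81), Psmb8 (0.79) and Upp1 (0.78), the first 2 of which encode parts of class I antigen presentation. Il1b was most like the monocyte attractants Ccl7 (0.71) and Ccl2 (0.68) and the Fc receptor gene Fcgr4 (0.67), and Il33 most like the stromal genes Cd248 and Dcn (0.69 each) and the myeloid lectin gene Clec10a (0.68).

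Il1rn was most like Tln2 (0.67), Stc2 (0.64) and Pabpc4 (0.64), Il1r1 most like Cpeb2 (0.68), Tgfbr1 (0.63) and Trim2 (0.63), and Il1r2 most like Mvk (0.56), Spn (0.53) and Fermt3 (0.51). Il1a was most like Gpr18 (0.58), Ifi209 (0.56) and Cd180 (0.54). Il18 was most like Gna14 (0.72), Pla2g5 (0.65) and Stom (0.64), but these fell to 0.53, 0.41 and 0.47 without its 2 most extreme mice. Over all other genes named here r was at least 0.48 without those mice.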

How the data were processed

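The deposited table holds, per the file headers and the study's methods, raw read pair counts per gene and mouse, with no normalization and without pooling of mice. The authors trimmed reads with cutadapt 2.8 and PrinSeq, aligned them to GRCm38 with HISAT2 2.1.0, kept uniquely mapped reads with SAMtools 1.9 and counted properly mapped pairs by strand with featureCounts (Subread 2.0.1). The counts were taken as deposited. Reads shared between genes and transcript forms were not resolved, and 37652 of the 37764 genes had a length (GENCODE M21 models) for TPM.

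Genes were kept by edgeR's filterByExpr over the 5 ages and scaled by TMM (factors 0.944 to 1.10). Age groups and library batch were fitted to all 83 mice with edgeR 4.0.16 (R 4.3.3, limma 3.58.1), and quasi-likelihood F tests were run for the 10 pairs of ages, all 5 ages, a slope and the departure from a straight line, with Benjamini-Hochberg adjustment over 18325 genes and a threshold of 0.1. Standard errors were derived from the F statistic, and intervals are 95% intervals. Correlations used log2 CPM (prior count 2) after removal of age and batch, with 100000 permutations in scipy 1.17.1 (Python 3.11.15, numpy 2.4.6, pandas 2.3.3), and figures were drawn with matplotlib 3.10.9. The scripts were tested on simulated data. Alternatives were DESeq2 1.42.0, other scaling, filters and thresholds, covariates and left-out mice.

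Ages and batches came from the labels of the mice. Any 2 mice of an age differed by at least 10.9 times the counting noise (649 pairs), so no 2 mice of an age share a library; mice of different ages were not compared in this way. All 9 genes are named. Other genes are named as the 3 largest called rises and falls of each pathway or marker list at 28 against 3 months, with exceptions stated where they occur, or as the 3 genes most like each of the 9. The 9 genes, the lists and the tests were chosen with earlier results of these data known. Intervals and the limit for a count of 0 cover counting error and the spread between these mice only.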

Additional observations from a re-analysis of the deposited data

How the results depend on the processing

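Of the 28 called differences between pairs of ages, DESeq2 and a fit without batch kept all 28, DESeq2 size factors 27, upper-quartile factors 27, adipocyte and fibroblast scores as covariates 25, macrophage and epithelial scores 20, no filter 20, at least 10 counts in every mouse 21, fits of only the 2 ages 17 and a threshold of 0.05 kept 18. Without the 3 mice with pancreatic RNA 21 were kept. In the fits with at least 10 counts, of only 2 ages and without these mice, 4 of the missing calls were those of Il1a, which fell below the filter and was not tested, and with at least 10 counts the other 3 were those of Il1r2, for the same reason. The fits with adipocyte and fibroblast scores, without the mice with pancreatic RNA and without single outlying mice were chosen after seeing the data. Equal replicate numbers did not pair mice (mean correlation 0.002 over 161 pairs, with 27 pairs above 0.1 and 3 mice closest to their own number), and with the replicate number as a block 26 of the 28 calls were kept, the exceptions being Il1b at 28 against 3 months and Il18bp at 28 against 15 months.

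The number of the 9 genes called at 9 against 3 months (2) was 1 at the threshold of 0.05 and 1 with only 2 ages. At 15 against 3 months (4) it was 2 with only 2 ages and 2 without the mice with pancreatic RNA. At 24 against 9 months (2) it was 1 without a filter, 1 with at least 10 counts, 1 at 0.05, 1 with adipocyte and fibroblast scores and 0 with macrophage and epithelial scores. At 24 against 15 months (0) it was 2 with either pair of scores, and at 28 against 15 months (3) it was 1 at 0.05. At 28 against 24 months (1) it was 0 with DESeq2 size factors, without a filter, with at least 10 counts, at 0.05, with only 2 ages, with adipocyte and fibroblast scores and without the mice with pancreatic RNA, and 2 with macrophage and epithelial scores. The departures from a straight line (2) were 1 without a filter, 1 at 0.05 and 5 with macrophage and epithelial scores. Without removal of age and batch 11 pairs of genes were correlated instead of 5. The causes were not tested.

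With the 3-month mouse 14, the 9-month mouse 13 or the 28-month mouse 1 left out, the counts ran from 1 to 3 at 9 against 3 months (1 without the 9-month mouse), from 1 to 2 at 24 against 9 months (1 without the 9-month mouse), from 2 to 5 at 28 against 9 months (2 without the 28-month mouse), from 0 to 1 at 28 against 24 months (0 without the 3-month or the 9-month mouse) and from 1 to 2 for the departure from a straight line (1 without the 3-month mouse). The difference of Il18bp at 28 against 3 months was -0.03, and ran from -0.14 to 0.03 with single mice left out, turning positive without the 3-month mouse 14. Its slope, 4.86e-05 per month and not called, turned to -0.000761 with the replicate block, -0.00199 with macrophage and epithelial scores, -0.000496 without the 9-month mouse 13 and -0.00305 without the 28-month mouse 1, in a range from -0.00305 to 0.00238. Genes with few reads, Il1a and Il1r2, are limited by depth.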
